A study of Mus musculus with 24 samples.

Results

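The astrocyte identity and function genes are 31 genes by which astrocytes are recognised or through which they work, from the transcription factors Sox9, Sox2 and Hes5 to the glutamate transporters Slc1a2 and Slc1a3, the gap junction genes Gja1 and Gjb6 and the water channel gene Aqp4. They were chosen by name. All 31 were present in the deposited table of 18240 genes, and all 31 were among the 16825 genes with a mean normalised read count of at least 10, which were tested. The data are bulk RNA sequencing of tissue labelled prefrontal cortex from C57BL/6J mice at postnatal day 40. Every library came from 1 of 4 arms. The controls were wild type (WT) mice given vehicle, and the other 3 arms were heterozygotes of genotype Dyrk1a+/I48X (HT) given vehicle, fluoxetine or lithium. Each arm had 6 libraries, 3 from females and 3 from males, 24 in all. No library of a drug-treated WT mouse was analysed here, so a drug effect could be read in HT mice only, and the WT libraries were compared with the drug arms across both genotype and drug. The sources used here give no dose, route or length of treatment. The labels do not say whether each library came from a separate mouse, and the p-values below cover the spread among libraries alone, part of which may be technical.

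Astrocytes are the glial cells that clear glutamate and potassium from around synapses, turn glutamate into glutamine, exchange ions and metabolites through gap junctions and wrap blood vessels with endfeet rich in water channels. Their identity rests on Sox9 and on Notch, FGF and BMP signalling. Astrocytes also differ between brain regions, and those of the olfactory bulb and the pial surface are known for more Gfap than those of the cortical grey matter. In bulk tissue, fewer astrocytes and less RNA per astrocyte cannot be told apart.

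Promoter sequences are shown for 3 genes picked by their differences between libraries described below, and for the gene with the smallest p between arms. A part of these sequences in those differences was not tested. Agt and Gfap had the steepest rise with the olfactory bulb score, Slc1a2 had the steepest fall, and Gjb6 differed most between fluoxetine-treated HT and WT mice. Each sequence is the 250 bases before the RefSeq start site on GRCm38.p6, 5′ to 3′ on the gene's strand. Agt lies at chr8:124569707-124569956 (minus strand), Gfap at chr11:102897201-102897450 (minus), Slc1a2 at chr2:102706188-102706437 (plus) and Gjb6 at chr14:57133612-57133861 (minus). Capitals mark matches to any of 4 motifs searched on both strands: the SOX core ACAAT, the NFI half-site TTGGC, the STAT motif TTCNNNGAA and the E-box CACGTG.
Agt: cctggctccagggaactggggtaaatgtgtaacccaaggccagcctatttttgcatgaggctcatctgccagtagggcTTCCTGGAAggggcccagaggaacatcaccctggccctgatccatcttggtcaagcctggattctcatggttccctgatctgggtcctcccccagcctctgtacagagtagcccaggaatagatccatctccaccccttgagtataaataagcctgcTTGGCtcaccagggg
Gfap: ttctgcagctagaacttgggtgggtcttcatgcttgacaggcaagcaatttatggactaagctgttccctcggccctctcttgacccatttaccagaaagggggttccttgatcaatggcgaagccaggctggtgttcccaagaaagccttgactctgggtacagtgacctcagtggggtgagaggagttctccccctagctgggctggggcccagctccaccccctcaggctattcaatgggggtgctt
Slc1a2: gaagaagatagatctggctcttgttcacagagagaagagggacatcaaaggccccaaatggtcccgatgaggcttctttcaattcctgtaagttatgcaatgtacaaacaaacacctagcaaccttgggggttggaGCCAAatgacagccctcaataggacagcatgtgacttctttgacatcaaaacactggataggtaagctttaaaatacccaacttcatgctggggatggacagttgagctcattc
Gjb6: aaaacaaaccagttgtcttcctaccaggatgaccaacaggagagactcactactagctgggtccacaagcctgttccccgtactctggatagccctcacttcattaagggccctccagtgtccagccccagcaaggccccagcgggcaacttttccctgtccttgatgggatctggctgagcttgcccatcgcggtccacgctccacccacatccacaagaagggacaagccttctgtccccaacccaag
Agt held a STAT match that began 172 bases upstream of its start and an NFI half-site at 15 bases. Slc1a2 held an NFI half-site at 114 bases, and the stretches of Gfap and Gjb6 held no match. RefSeq's promoter table had 36 windows, each running from 250 bases before to 50 bases after a start, for 28 of the 31 genes. Sox9, Aqp4 and Slc14a1 had no entry. A STAT match was present in 16.7% of these windows against 8.30% of all 32851 windows, in Agt, Acsbg1, Aldoc, Gfap, Ntsr2 and Slc1a3. That of Gfap lay after its start, outside the stretch shown. The RefSeq starts used for Gfap and Slc1a2 fall inside the longer GENCODE extent of each gene. That extent begins at chr11:102900912 for Gfap (minus strand) and at chr2:102658659 for Slc1a2 (plus strand). The stretches shown for these 2 genes are therefore not those before the outermost annotated start. The NFI half-site was present in 47.2% against 46.7%, the SOX core in 22.2% against 31% and the E-box in 5.56% against 7.15%. A match is a stretch of letters and was not tested as a binding site.

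Levels spanned a wide range once divided by gene length. Glul, the glutamine synthetase that converts glutamate to glutamine, had the highest level, 14417 ± 1283 normalised reads per kb of exon (SD, n = 24 libraries), higher than 99.8% of all genes tested. Aldoc, the aldolase of brain glycolysis, followed at 5572 ± 417 per kb and Slc1a2, the main forebrain glutamate transporter, at 4971 ± 767 per kb. Aldoc and Slc1a2 differed by less than their spread. Ttyh1, a membrane protein of the tweety family, and Slc1a3, the glutamate transporter also called GLAST, lay next at 2106 ± 81 and 1988 ± 200 per kb and overlapped as well. The lowest levels were those of Plcd4, a phosphoinositide phospholipase (50.4 ± 8.90 per kb), Slc14a1, a urea transporter (51.3 ± 8.72), and Etnppl, which breaks down phosphoethanolamine (55.9 ± 20.7). These 3 overlapped one another. In reads, the scarcest value of any of the 31 genes was the 71 reads of Agt in a single library.

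The genes also differed in how far they varied between libraries. Ttyh1 was the steadiest, with an SD of 3.83% of its mean over the 24 libraries, followed by Ntsr2 (6.5%), a neurotensin receptor, Aldh1l1 (7.19%), the folate enzyme used as a pan-astrocyte marker, and Cldn10 (7.19%), a claudin. The most variable was Agt, the precursor of angiotensin peptides, with an SD of 67.7% and a 7.26-fold range. Etnppl (37.0%), Gfap (36.5%), the intermediate filament of astrocytes, Slc4a4 (28.4%), the sodium bicarbonate cotransporter, and Hes5 (25%), a Notch target, came next.

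Facts of the whole series that touch these genes are the following. Depth ran from 24133344 to 35940460 reads per library. Dyrk1a itself ranged from 2088 to 2349 normalised reads in WT from 2254 to 2431 in HT on vehicle, from 2353 to 2589 on fluoxetine and from 2254 to 2584 on lithium, so the HT label did not go with a lower level, and gene-level values do not show which allele was read. Genotypes are therefore as labelled throughout. The labels give 2 batches, P40_L1 and P40_L2, and P40_L2 held all 6 lithium libraries and 1 fluoxetine library (HT fluoxetine female 3). Libraries differed widely in genes of the olfactory bulb, a structure next to the frontal cortex. A bulb score, the mean of log2(value + 1) over Cdhr1, Doc2g and Eomes, genes of the bulb's mitral and tufted cells, ran from 4.19 to 12.3, and Cdhr1 from 36.9 to 8456 normalised reads. The 6 libraries with the highest scores (11.7 to 12.3) were HT fluoxetine female 1, HT fluoxetine male 1, HT lithium male 1, HT vehicle female 2, HT vehicle male 3 and WT female 2. The other 18 lay between 4.19 and 10.7. The 31 astrocyte genes summed to between 189289 and 206054 normalised reads in WT, 196210 and 220768 in HT on vehicle, 206114 and 217816 on fluoxetine and 200009 and 229081 on lithium. Genes of cortical excitatory neurons summed to between 36820 and 69360 reads in every library. Drd2, of striatal neurons, or Ttr, of choroid plexus, stood out in 4 further libraries (HT fluoxetine female 2, HT vehicle female 1, HT vehicle male 1 and WT female 1).

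Most astrocyte genes followed the bulb score. In a limma fit of all 24 libraries with 8 group means (arm by sex) and the score as a covariate, 21 of the 31 genes passed an adjusted p of 0.05 (Benjamini-Hochberg over all 16825 genes tested), 17 higher and 4 lower in libraries with more bulb RNA. The background was high, since 50.7% of all genes tested passed, 25.2% higher and 25.5% lower, and 56.7% had an unadjusted p under 0.05, as did 23 of the 31. The median slope of the 31 genes was 0.030 log2 units per unit of score, against 0.001 over all genes tested. The score and the astrocyte genes were read in the same libraries under the same normalisation, so the slope describes these libraries and carries no order of events. edgeR and DESeq2 on reads recovered from the table each passed 21 of the 31.

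**Figure D1:**
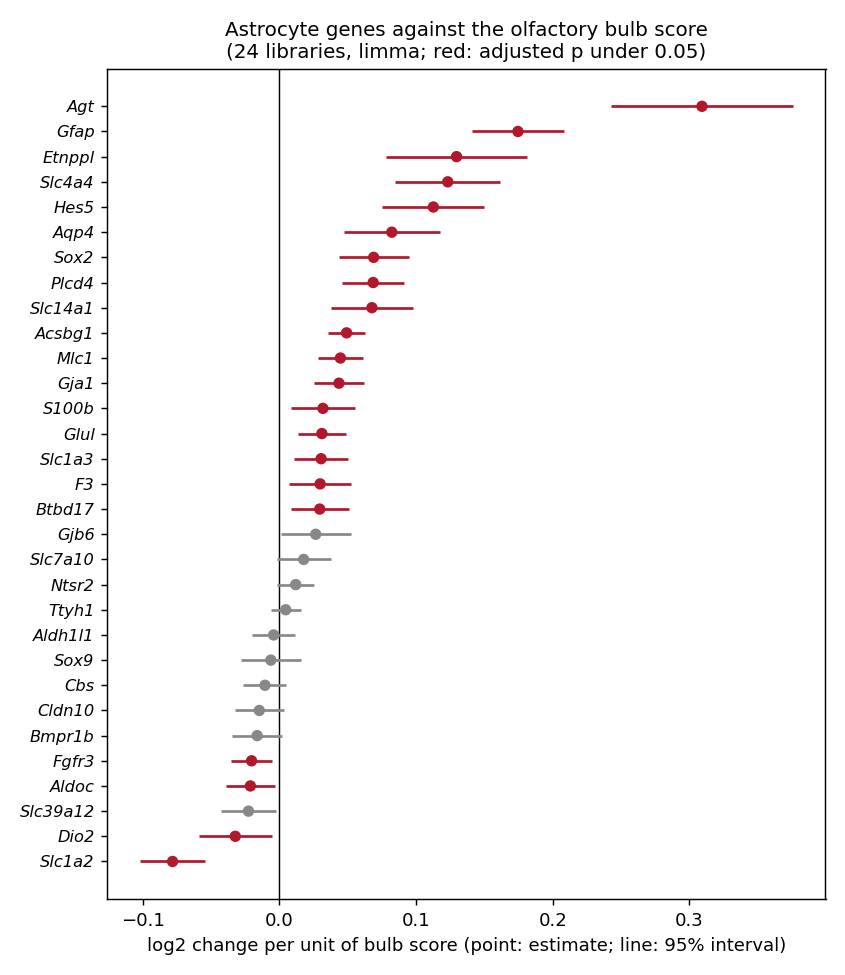
Slope of each of the 31 astrocyte genes on the olfactory bulb score, in log2 units per unit of score, with its 95% interval (limma, 24 libraries). Red points passed an adjusted p of 0.05: 17 lie above 0, led by Agt at 0.31, and 4 below, led by Slc1a2 at -0.08.

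Among the structural and calcium-binding genes all 3 rose with the score. Gfap ranged from 2325 to 4043 normalised reads (median 2901) in the 18 libraries with lower scores and from 5113 to 6838 (median 5932) in the 6 with the highest, with no overlap. Its slope was 0.17 ± 0.02 (SE; adjusted p = 2.11e-07, limma). Plcd4 ranged from 260 to 392 (median 330) in the 18 and from 392 to 527 (median 418) in the 6, with a slope of 0.07 ± 0.01. All 6 stood above the 18 for both genes. The 6 were picked by the score, whose slope passed for 50.7% of all genes tested. The share of all genes tested with such a separation was not counted, for these genes or for those below. The separations therefore describe these libraries and do not set these genes apart from other genes. S100b, a calcium-binding protein of mature astrocytes, overlapped, at 1920 to 2884 against 2426 to 2894, with a slope of 0.03 ± 0.01 (adjusted p = 0.0252). Reads of Plcd4 may be mixed with those of Zfp142, an antisense gene that shares 2101 exonic bases with it, because the sources used here do not name the strand setting of the counting.

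The secreted and other genes rose too. Agt had the steepest slope of the 31, 0.31 ± 0.03 (adjusted p = 7.21e-07, limma), with 77.3 to 234 normalised reads (median 121) in the 18 libraries and 298 to 561 (median 401) in the 6. Its 6 highest libraries were the 6 with the most bulb RNA. Btbd17, a BTB-domain protein found in astrocytes, overlapped between the sets at 292 to 426 and 369 to 426, with a slope of 0.03 ± 0.01.

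Of the 9 channel, transporter and junction genes, 5 rose and none fell. Slc4a4 went from 3366 to 5165 normalised reads (median 3969) in the 18 libraries to 6314 to 7726 (median 6635) in the 6, with a slope of 0.12 ± 0.02 (adjusted p = 3.07e-05, limma). Aqp4, the water channel of the endfeet, went from 2420 to 3450 (median 2851) to 3740 to 4747 (median 4300), a slope of 0.08 ± 0.02. Mlc1, a membrane protein of the perivascular endfeet mutated in a leukoencephalopathy, went from 3430 to 4069 (median 3841) to 4193 to 5117 (median 4613), a slope of 0.04 ± 0.01. All 6 high-score libraries stood above the other 18 for these 3 genes. Slc14a1 (160 to 221 against 217 to 303, slope 0.07 ± 0.01) and Gja1, the connexin 43 gene (3748 to 4925 against 4745 to 5877, slope 0.04 ± 0.01), overlapped in 1 high-score library each. Gjb6, Ttyh1, Cldn10 and the zinc transporter gene Slc39a12 did not pass, with slopes between -0.02 and 0.03.

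The transcription factors split. Sox2, a progenitor factor kept by astrocytes, ranged from 476 to 635 normalised reads (median 552) in the 18 libraries and from 644 to 818 (median 754) in the 6, without overlap (slope 0.07 ± 0.01, adjusted p = 1.53e-04, limma). Hes5 ranged from 194 to 383 (median 246) and from 322 to 409 (median 393), a slope of 0.11 ± 0.02. Sox9, the factor that specifies and maintains astrocytes, did not pass, at 447 to 694 (median 550) against 511 to 597 (median 526) and a slope of -0.01 ± 0.01. High bulb scores thus went with more Sox2 and Hes5 and left Sox9 within its spread.

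Glutamate handling moved in both directions. Slc1a2 fell with the score, from 60823 to 86191 normalised reads (median 69388) in the 18 libraries to 47212 to 58924 (median 50346) in the 6, with a slope of -0.08 ± 0.01 (adjusted p = 2.50e-05, limma). The 6 stood below all of the 18, and Slc1a2 was the gene of the 31 for which that held. Glul rose, from 38007 to 50087 (median 47274) to 49927 to 57187 (median 52765), with a slope of 0.03 ± 0.01. Slc1a3 rose as well, from 14767 to 19448 (median 16024) to 17701 to 20410 (median 19350), with a slope of 0.03 ± 0.01. The last 2 overlapped between the sets, and Slc7a10, the alanine, serine and cysteine transporter, did not pass (0.02 ± 0.01). The forebrain transporter and GLAST thus had slopes of opposite sign in the same libraries.

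Metabolic enzymes and receptors were mixed. Acsbg1, which activates long-chain fatty acids, rose (0.05 ± 0.01), at 3221 to 3971 normalised reads in the 18 libraries and 4043 to 4670 in the 6, without overlap. Etnppl rose (0.13 ± 0.02), at 242 to 647 and 608 to 828. F3, the tissue factor gene, rose by 0.03 ± 0.01 and overlapped, at 704 to 991 and 885 to 1201. Falling genes were Aldoc (-0.02 ± 0.01, at 16620 to 20487 and 15707 to 18023), Dio2 (-0.03 ± 0.01, at 2262 to 3791 and 2398 to 2986), which activates thyroid hormone, and Fgfr3 (-0.02 ± 0.01, at 2422 to 3273 and 2450 to 3109), an FGF receptor of the astrocyte lineage. All 3 overlapped between the sets, although for Aldoc 3 of the 6 high-score libraries lay below all of the 18. Aldh1l1, Cbs, which makes cystathionine from homocysteine, Bmpr1b, a BMP receptor, and Ntsr2 did not pass.

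**Figure D2:**
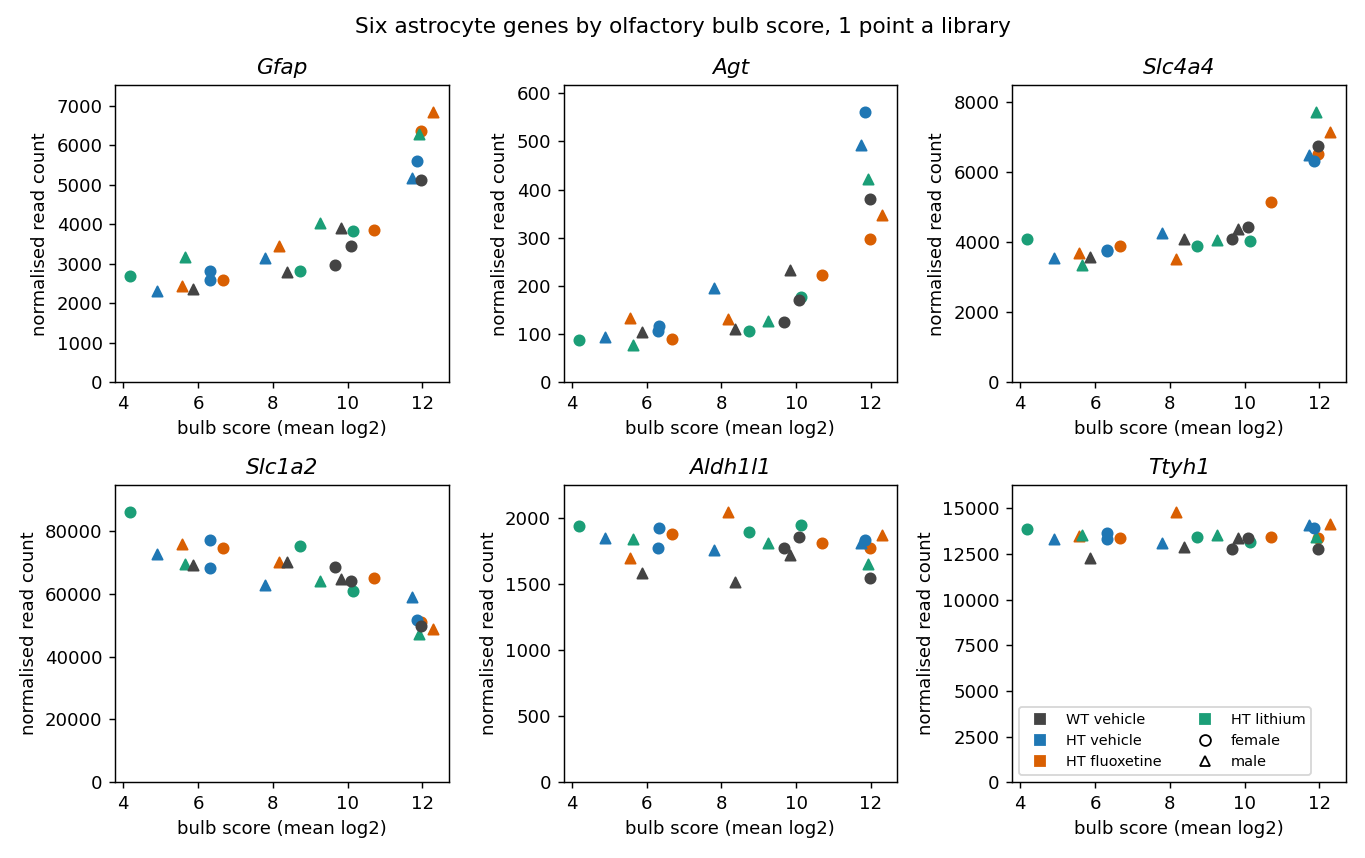
Normalised read counts of 6 astrocyte genes (y axis, from 0) against the bulb score (x axis, mean log2), 1 point a library, coloured by arm and shaped by sex. Gfap, Agt and Slc4a4 are highest and Slc1a2 is lowest in the 6 libraries scoring above 11.7, while Aldh1l1 and Ttyh1 are level across the axis.

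Much of the relation rested on the 6 libraries with the highest scores. Without them 3 genes passed in limma, Gfap (0.12), Agt (0.21) and Slc1a2 (-0.05), the median slope was 0.012 and 1051 of all genes passed. In the same fit the slopes of Slc1a3 (-0.0005), F3 (-0.0032) and Aldoc (0.0048) turned sign without passing. Without the 4 libraries high in Drd2 or Ttr, 15 of the 31 and 7750 of all genes passed, against 21 and 8533 with every library, and the median was 0.025. The score took up 86.4% of the residual variance within groups for Gfap, 83.7% for Agt, 80.0% for Acsbg1 and 78.1% for Slc1a2, and 2.06% for Aldh1l1 and 2.31% for Sox9.

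Other cell types moved with the same score. All 5 tested genes of bulb projection neurons, 3 of which define the score, and all 6 of bulb interneurons rose, all 8 of cortical excitatory neurons fell, 5 of 7 of olfactory ensheathing glia and all 6 of meninges rose, and 1 of 8 of oligodendrocytes fell. The summed level of the meningeal genes ran from 14034 to 38174 normalised reads and that of the ensheathing glia genes from 23231 to 46844. Their part in the slopes of the astrocyte genes was not tested. The counts of the next lists stand beside the 25.2% of all genes that rose and the 25.5% that fell. Among further astrocyte genes outside the 31, 22 of 40 rose and 2 fell, with the smallest p for Fabp7, a fatty acid binding protein of radial glia and ensheathing glia (0.49 ± 0.04), the glycine and GABA transporter genes Slc6a9 (0.16 ± 0.01) and Slc6a11 (0.24 ± 0.02), and Gldc, of glycine breakdown (0.08 ± 0.01). Of genes known from reactive astrocytes, 21 of 31 rose and 1 fell, among them Vim (0.13 ± 0.01) and Amigo2 (0.23 ± 0.03). Of Notch and BMP signalling genes, 12 of 23 rose and 3 fell, led by the receptor Notch2 (0.22 ± 0.02), the ligand Dll1 (0.18 ± 0.02) and the targets Hey2 (0.29 ± 0.03) and Id3 (0.09 ± 0.01). These lists were chosen with earlier results of these data known, so their counts are a description. They are not separate from one another or from the 31, since Gfap is also in the reactive list. Fabp7 is also in the ensheathing glia list, and Id3 and Id4 are in both the further astrocyte and the Notch and BMP lists.

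Arms were compared next, first HT against WT mice on vehicle, the genotype question. None of the 31 astrocyte genes passed (limma, and likewise edgeR and DESeq2), and 0% of all genes passed in limma, with 0 by edgeR and by DESeq2. Of the 31, 26 were higher in HT, with a median log2 difference of 0.055, where 48.7% of all genes were higher and their median was -0.002. Leaving out 1 library moved that of the 31 between 0.015 (without HT vehicle male 3) and 0.094 (without HT vehicle male 2). Leaving out HT vehicle female 2 gave 0.035, WT male 1 0.030 and WT female 2 0.084. At an unadjusted p of 0.05, 1 of the 31, a higher one, and 455 of all genes (2.7%, 1.53% higher) differed. All libraries of both arms were in batch P40_L1. Of the other cell types, 10 of 10 microglial genes and 8 of 8 striatal genes were higher in HT, 8 of 8 oligodendrocyte genes and 6 of 6 bulb interneuron genes were lower, and none of them passed. Their part in the differences of the astrocyte genes was not tested, here or in the comparisons below. The striatal genes summed to between 4314 and 15027 normalised reads in WT (median 8698). In HT on vehicle they summed to between 4511 and 31811 (median 9748), and Drd2 was at 1379 in HT vehicle male 1. The HT vehicle libraries also enter the comparisons of each drug with vehicle below.

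The 4 genes with the smallest p were each a little higher in HT. Aldh1l1 had 1514, 1652 and 1854 normalised reads (lowest, median, highest) in WT and 1757, 1824 and 1928 in HT, a log2 difference of 0.14 ± 0.05 (SE; limma, adjusted p = 1). All 6 HT libraries were above the WT mean, yet the arms overlapped. Fgfr3 had 2422, 2672 and 2804 in WT and 2639, 2846 and 3199 in HT (0.12 ± 0.06), again with 6 of 6 HT libraries above the WT mean. Gjb6, the connexin 30 gene, had 805, 1029 and 1267 in WT and 1005, 1186 and 1269 in HT (0.18 ± 0.09), with 4 of 6 above. Ttyh1 had 12255, 12842 and 13384 in WT and 13119, 13471 and 14103 in HT (0.07 ± 0.04), with 6 of 6 above. The arms overlapped for each of the 31 genes, and did not for 0.19% of all genes.

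By role, all 4 glutamate and amino acid genes were above 0, between 0.02 and 0.10, as were 8 of the 9 channel and junction genes (-0.02 to 0.18) and 5 of the 6 enzymes (-0.06 to 0.14). S100b (-0.13 ± 0.09), Bmpr1b (-0.11 ± 0.06) and Sox2 (-0.09) were the lowest of the 31, and Agt the highest (0.26) with a wide error. None of these differences passed.

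**Figure D3:**
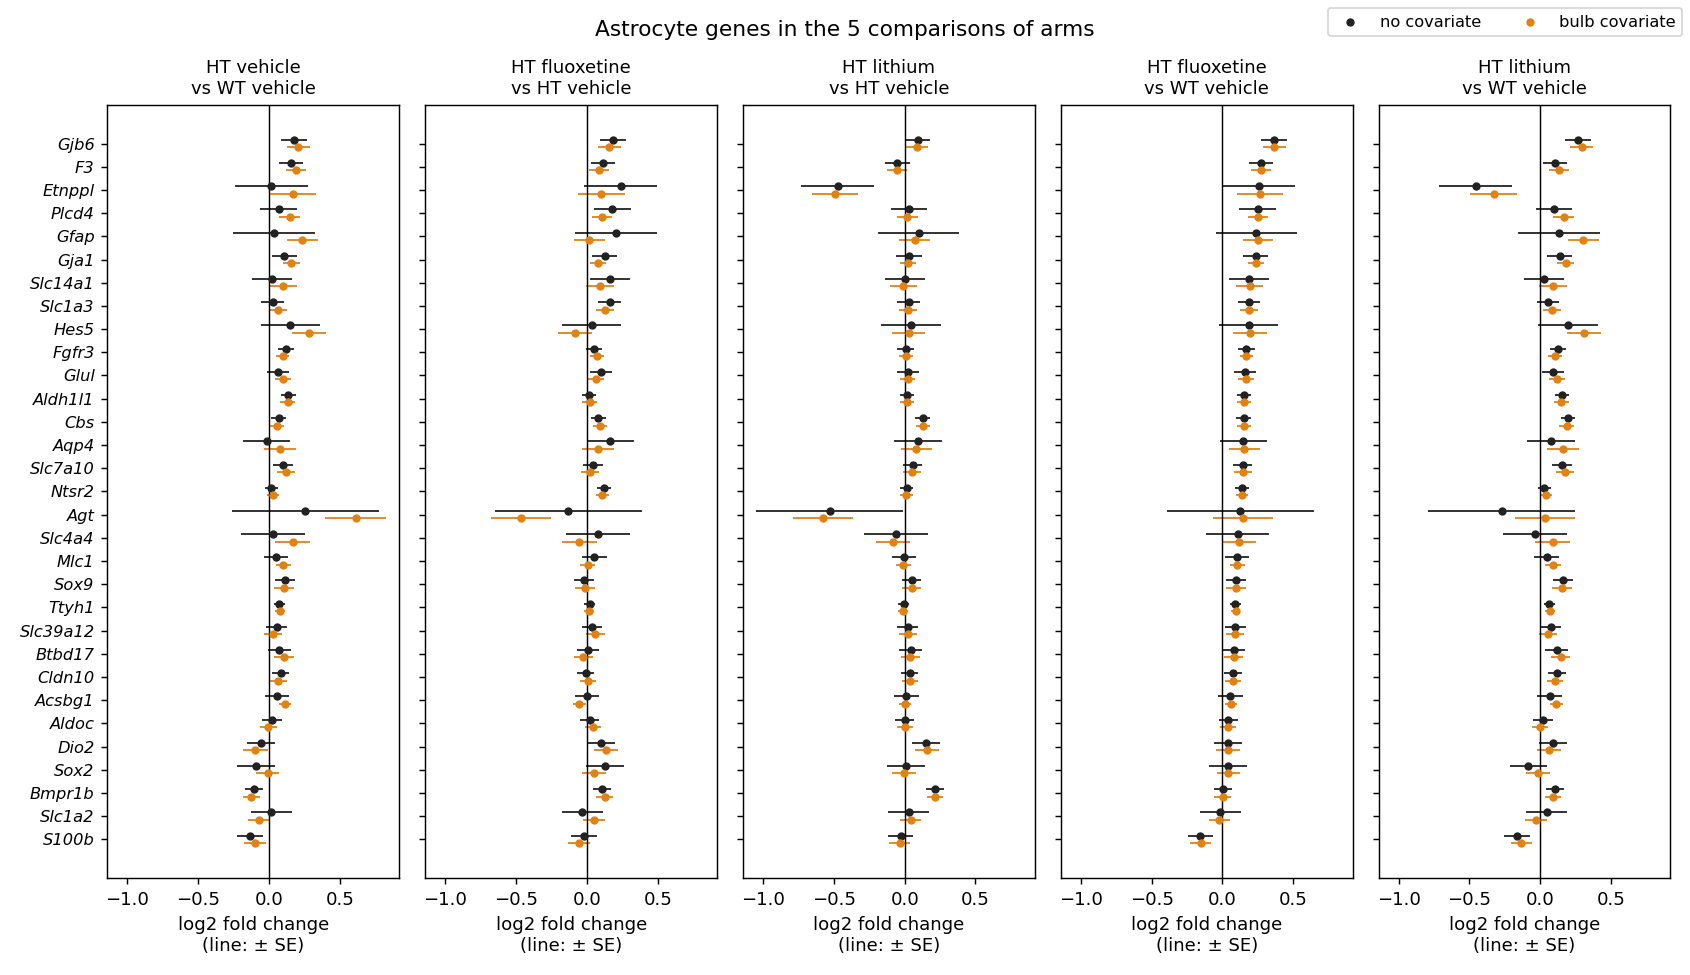
Log2 fold change ± SE of each of the 31 astrocyte genes in the 5 comparisons of arms, without (black) and with (orange) the bulb score as a covariate (limma). None passed an adjusted p of 0.05, and points lie to the right of 0 for 26, 26, 23, 29 and 26 genes without the covariate.

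The bulb score differed between the arms within their spread, with a median of 9.75 in WT, 7.06 in HT on vehicle, 9.43 on fluoxetine and 8.99 on lithium. With the score as a covariate, the median difference between HT and WT on vehicle was 0.101, 9 genes were higher and 1 lower at an unadjusted p of 0.05 (9.16% of all genes), and none passed adjustment (smallest adjusted p = 0.451, limma). Agt was then at 0.61 ± 0.21, Hes5 at 0.28 ± 0.12 and Gfap at 0.24 ± 0.11, while Aldh1l1 (0.13 ± 0.05) and Ttyh1 (0.08 ± 0.04) kept about the same value. A score on a linear scale, which took up 94.3% of the residual variance of Slc4a4, was also tried, an alternative chosen after seeing the data. With it the median was 0.056 and again none passed. The largest difference of the 31 genes was then 0.23, below the 0.61 of Agt and the 0.28 of Hes5 with the log2 score. Without the 6 high-score libraries the median was 0.012.

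Fluoxetine, a serotonin reuptake inhibitor, was compared with vehicle in HT mice. None of the 31 genes passed (limma, edgeR and DESeq2), against 0.0119% of all genes in limma, 0.00594% higher and 0.00594% lower (2 genes, with 2 by edgeR and 16 by DESeq2). Of the 31, 26 were higher on fluoxetine, where 49.5% of all genes were, and the median was 0.079, or 0.042 without HT fluoxetine female 1. Of the other cell types, 6 of 6 meningeal and 6 of 6 bulb interneuron genes were higher, with medians of 0.22 and 0.60, and 8 of 8 striatal and 8 of 8 oligodendrocyte genes were lower, with medians of -0.54 and -0.07, none of them passing. At an unadjusted p of 0.05, 1 of the 31, a higher one, and 5.71% of all genes (2.66% higher) differed. That gene was Ntsr2, with 2425, 2487 and 2559 normalised reads on vehicle and 2530, 2652 and 2992 on fluoxetine (lowest, median, highest), a difference of 0.12 ± 0.05 (limma, adjusted p = 0.781). All 6 fluoxetine libraries were above the vehicle mean and the lowest of them lay below the highest vehicle library.

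The next 3 by p were Gjb6, Slc1a3 and Bmpr1b. Gjb6 had 1160, 1296 and 1464 normalised reads on fluoxetine against 1005, 1186 and 1269 on vehicle (0.19 ± 0.09). Slc1a3 had 16134, 18650 and 20410 against 15067, 15740 and 19531 (0.16 ± 0.08). Bmpr1b had 502, 587 and 631 against 474, 536 and 584 (0.11 ± 0.06). Libraries of the 2 arms overlapped for all 3 genes, and for all 31, where 0.47% of all genes did not overlap. By role, all 4 receptor genes lay above 0 (0.05 to 0.12), as did all 6 enzymes (up to 0.24 for Etnppl), while Agt was lowest at -0.13. With a batch term the median was 0.075, and with the bulb score it was 0.052, with none passing in either fit.

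Lithium, a mood stabiliser, was compared with vehicle in HT mice under a limit of the design: all lithium libraries were in batch P40_L2 and all HT vehicle libraries in P40_L1, so drug and batch are tied together but for 1 fluoxetine library. None of the 31 genes passed (limma, edgeR and DESeq2), against 0.0119% of all genes in limma (2 genes, both lower, with 0 by edgeR and 3 by DESeq2). Of the 31, 23 were higher on lithium, where 49.5% of all genes were, and the median was 0.025. The sign of that median was not stable: it lay between -0.004 (without HT vehicle male 2) and 0.061 (without HT vehicle male 3) when 1 library was left out, with 9 of the 12 libraries each moving it by over 1.5 times, and at -0.019 without the 4 libraries high in Drd2 or Ttr. Of the other cell types, 8 of 8 oligodendrocyte genes were higher (median 0.11), and 10 of 10 microglial and 8 of 8 striatal genes were lower (medians -0.10 and -0.49), none of them passing. At an unadjusted p of 0.05, 2 of the 31, both higher, and 2.75% of all genes (1.43% higher) differed. They were Bmpr1b and Cbs. The arms overlapped for all 31 genes, and did not for 0.166% of all genes.

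Bmpr1b had 582, 607 and 656 normalised reads on lithium against 474, 536 and 584 on vehicle (lowest, median, highest), a difference of 0.21 ± 0.06 (limma, adjusted p = 1). The lowest lithium library lay just under the highest vehicle library. Cbs had 690, 703 and 769 against 614, 644 and 714 (0.13 ± 0.05), with 6 of 6 lithium libraries above the vehicle mean. Etnppl had 242, 298 and 610 against 280, 508 and 691 (-0.47 ± 0.26), with 5 of 6 lithium libraries below the vehicle mean and the remaining 1, HT lithium male 1, among the high-score libraries. Dio2 had 2309, 2845 and 3791 against 2262, 2655 and 2986 (0.15 ± 0.10). Leaving out 1 library moved Dio2 between 0.057 (without HT lithium female 2) and 0.24 (without HT lithium female 1), and Etnppl between -0.67 (without HT lithium male 1) and -0.29 (without HT vehicle male 3). With a batch term, which rests on the single fluoxetine library of P40_L2, Bmpr1b stayed at 0.19 and Etnppl at -0.27, while Cbs was -0.01 and Dio2 -0.02, both with the sign turned. With the bulb score Etnppl was at -0.49 ± 0.16, Agt at -0.58 ± 0.21 and none passed.

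**Figure D4:**
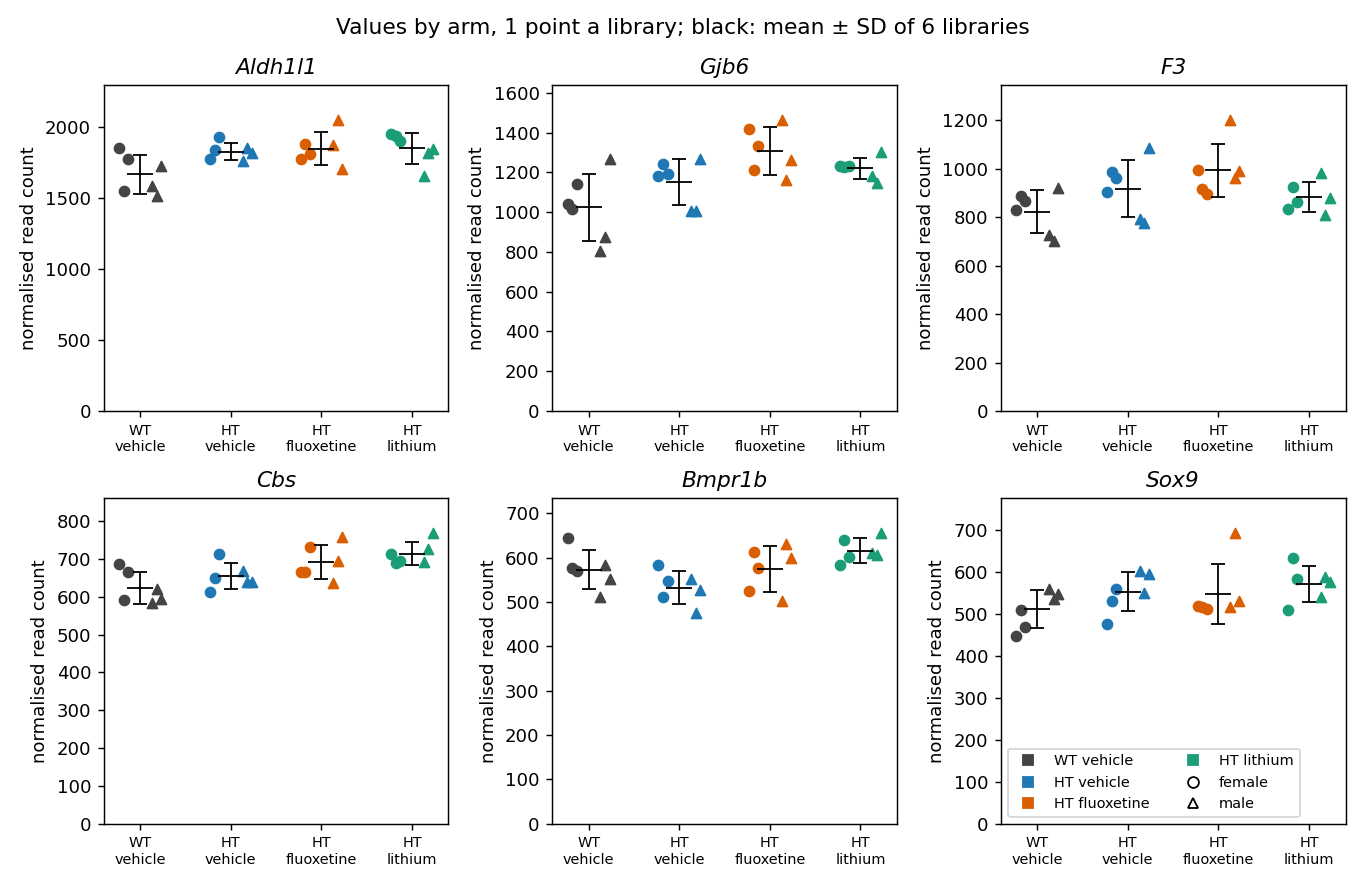
Normalised read counts of 6 astrocyte genes by arm (y axis from 0), 1 point a library, circles for females and triangles for males, with the mean ± SD of 6 libraries in black. Cbs of the lithium arm lies between 690 and 769, above every WT library (584 to 687), and the other arms of these genes overlap with WT. All lithium libraries were in batch P40_L2 and all WT libraries in P40_L1.

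The drug arms were also set against WT, a comparison that joins genotype and drug and shares the WT libraries with the genotype comparison, as the drug comparisons above share the HT vehicle libraries with it. For HT on fluoxetine against WT, none of the 31 passed (limma, edgeR and DESeq2), and 0% of all genes did in limma, with 0 by edgeR and 18 by DESeq2. Of the 31, 29 were higher, where 49.2% of all genes were, with a median of 0.138, or 0.092 without HT fluoxetine male 1. Other cell types also lay on 1 side: 10 of 10 microglial genes (median 0.11, 4 at an unadjusted p of 0.05), 6 of 6 meningeal genes (median 0.38) and 5 of 5 choroid plexus genes (median 0.62) were higher, and 8 of 8 striatal (median -0.29) and 8 of 8 oligodendrocyte genes (median -0.13) were lower, none of them passing. The meningeal genes summed to between 14034 and 30194 normalised reads in WT and to between 17950 and 38174 on fluoxetine. At an unadjusted p of 0.05, 9 of the 31 differed, all higher, against 4.38% of all genes (2.46% higher).

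Gjb6 stood out by size, with 805, 1029 and 1267 normalised reads in WT and 1160, 1296 and 1464 on fluoxetine (lowest, median, highest), a difference of 0.36 ± 0.09 (27.6%; limma, adjusted p = 0.530). All 6 fluoxetine libraries were above the WT mean, while WT male 3 reached into their range. Without WT male 3, the WT library highest in Gjb6, the gene passed (0.46, limma, adjusted p = 0.0499). It did not pass in the other 11 fits that left out 1 library, or under 14 other alternatives. Between 0 and 3 of all genes passed in the 12 fits. F3 had 704, 849 and 922 in WT and 895, 975 and 1201 on fluoxetine (0.27 ± 0.09), with 6 of 6 above the WT mean. Fgfr3 had 2422, 2672 and 2804 in WT and 2683, 2975 and 3273 on fluoxetine (0.17 ± 0.06), also with 6 of 6 above. Aldh1l1 had 1514, 1652 and 1854 in WT and 1702, 1841 and 2049 on fluoxetine (0.15 ± 0.05). The arms overlapped for these 4 genes and for the other 27, and did not for 0.232% of all genes. The further 5 at an unadjusted p of 0.05 were Gja1 (0.23 ± 0.09), Slc1a3 (0.19 ± 0.08), Cbs (0.15 ± 0.05), Ntsr2 (0.14 ± 0.05) and Ttyh1 (0.09 ± 0.04). With them, both gap junction connexin genes of the list were among the 9. S100b was lowest, at -0.16 ± 0.09, with all 6 fluoxetine libraries below the WT mean.

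With the bulb score as a covariate 13 of the 31 reached an unadjusted p of 0.05, all higher, against 9.65% of all genes, and the smallest adjusted p was 0.152, of Gjb6 at 0.37 ± 0.08 (limma). Gja1 was at 0.24 ± 0.06, F3 at 0.27 ± 0.07 and Plcd4 at 0.25 ± 0.07. Without the 6 high-score libraries the median was 0.086.

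For HT on lithium against WT, none of the 31 passed (limma, edgeR and DESeq2), and 0% of all genes did in limma, with 0 by edgeR and 5 by DESeq2. Of the 31, 26 were higher, where 47.5% of all genes were, with a median of 0.088, or 0.052 without WT male 1. Of the other cell types, 6 of 6 meningeal genes were higher (median 0.18), and 8 of 8 striatal and 6 of 6 bulb interneuron genes were lower (medians -0.30 and -0.53), none of them passing. At an unadjusted p of 0.05, 6 of the 31, all higher, and 2.56% of all genes (1.49% higher) differed. Cbs had 584, 607 and 687 normalised reads in WT and 690, 703 and 769 on lithium (lowest, median, highest), a difference of 0.20 ± 0.05 (limma, adjusted p = 1). It was the 1 gene of the 31 whose libraries did not overlap between these arms, against 0.214% of all genes, and with a batch term its difference was 0.06. All lithium libraries were in batch P40_L2 and all WT libraries in P40_L1, so genotype, drug and batch are tied together here. The batch term rests on the single fluoxetine library of P40_L2. Aldh1l1 had 1656, 1870 and 1948 on lithium (0.15 ± 0.05), Gjb6 1145, 1229 and 1301 (0.27 ± 0.09) and Sox9 509, 580 and 633 against 447, 523 and 561 in WT (0.16 ± 0.07). All 3 overlapped with WT. Slc7a10 (0.15 ± 0.07) and Fgfr3 (0.13 ± 0.06) were the remaining 2, at 0.36 and 0.33 with a batch term. Slc7a10 shares 377 exonic bases with the antisense gene Lrp3, and Fgfr3 shares 998 with G630022F23Rik. With the bulb score as a covariate, 12 of the 31 reached an unadjusted p of 0.05, all higher, against 7% of all genes. The median was then 0.105 and none passed (smallest adjusted p = 0.463, limma).

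Other astrocyte lists gave no calls between arms without the bulb score, and 1 gene with it. Of the 40 further astrocyte genes, 30 were higher in HT than in WT on vehicle, 32 on fluoxetine than on vehicle, 23 on lithium than on vehicle, 36 on fluoxetine than in WT and 31 on lithium than in WT, with 0 passing in limma in each. The smallest p among them belonged to Htra1, a secreted protease, on fluoxetine against WT (0.28 ± 0.07, adjusted p = 0.539), and to Gpr37l1, an astrocyte receptor, on lithium against WT (0.14 ± 0.03). Of the reactive astrocyte genes, 16, 23, 17, 22 and 20 of 31 were higher in the same 5 comparisons, and 0 passed. Cd44, a hyaluronan receptor, was at 0.34 ± 0.13 in HT against WT on vehicle and at -0.22 ± 0.13 on lithium against vehicle. Of the Notch and BMP genes, 15, 18, 13, 20 and 20 of 23 were higher and 0 passed without the score. With the score as a covariate Id1 passed on fluoxetine against WT (0.51 ± 0.08, adjusted p = 0.0196, limma) and on lithium against WT (0.52 ± 0.08, adjusted p = 0.0235), where 0.0416% and 0.0238% of all genes did. With the score on a linear scale it did not (limma, adjusted p = 0.0888 and 0.113). All lithium libraries were in batch P40_L2 and all WT libraries in P40_L1, so genotype, drug and batch are tied together in the lithium call. Without the score the BMP targets Id1 and Id4 were at 0.50 ± 0.13 and 0.32 ± 0.08 on fluoxetine against WT (adjusted p = 0.568 and 0.539, limma). The summed level of microglial genes, for comparison, ran from 10771 to 13069 normalised reads in WT and from 12301 to 13306 in HT on vehicle.

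Females and males were compared over all arms. None of the 31 genes passed (limma, edgeR and DESeq2), against 0.0832% of all genes in limma, 0.0416% higher in males and 0.0416% lower (14 genes, with 13 by edgeR and 20 by DESeq2). Of the 31, 13 were higher in males, where 48.5% of all genes were, with a median of -0.020 (-0.042 to -0.000015 when 1 library was left out), and 1 of the 31 (higher in males) and 2.59% of all genes (1.31% higher) reached an unadjusted p of 0.05. That gene was Sox9, with 447, 514 and 633 normalised reads in the 12 female libraries and 517, 556 and 694 in the 12 male libraries (lowest, median, highest), a difference of 0.13 ± 0.05 (limma, adjusted p = 1). Of the male libraries, 11 of 12 were above the female mean and the sexes overlapped for all 31 genes, where 0.0535% of all genes did not. Etnppl had 242, 550 and 691 in females and 252, 332 and 828 in males (-0.35 ± 0.18), with 9 of 12 males below the female mean. Without the 6 high-score libraries Etnppl passed, at -0.56 (limma, adjusted p = 0.0371). It did not pass under 12 other alternatives or when each of the 24 libraries was left out in turn. Between 11 and 20 of all genes passed under these 13 alternatives. Fgfr3 (2450, 2918 and 3273 in females against 2422, 2758 and 3107 in males) and Aldoc (15707, 18979 and 20487 against 15929, 17727 and 20449) were both at -0.08 and overlapped fully.

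An interaction of sex with each effect was tested as well. None of the 31 genes passed for the genotype effect, the fluoxetine effect or the lithium effect, and 0% of all genes passed in each (limma). At an unadjusted p of 0.05 the counts were 1, 0 and 0 of the 31 against 2.17%, 1.07% and 1.63% of all genes. Slc7a10 was the gene, with a genotype effect larger in males by 0.32 ± 0.14 (limma, adjusted p = 0.996).

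Counts were also simulated from the means and dispersions of these libraries with known changes between HT and WT on vehicle. Of the genes changed 1.25-fold 26.9% were found by limma, of those changed 1.5-fold 64.2% and of those changed 2-fold 77.3%. There were 5 false calls among the genes left unchanged, out of 16825 simulated. Each gene was drawn independently, so variation shared between genes, such as that with the bulb score, was left out. These shares may therefore not hold for the real libraries. The median SE of a log2 difference between arms was 0.087 for the 31 genes and 0.103 for all genes tested. Most differences between arms of the 31 genes were under 0.2 on the log2 scale.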

How the data were processed

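The authors deposited 1 table of normalised read signal, 18240 genes by 24 libraries. The submitters' processing notes name Salmon 0.11.2, R 3.6.0, DESeq2 1.19.11 and GRCm38 without roles. Within a library the deposited signal values are whole multiples of the worth of a single read (100% within 0.01), so they look like counts divided by a size factor, and reads were recovered from them. Symbols and coordinates came from GENCODE M21 for 18227 genes.

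Values were tested with limma 3.58.1 in R 4.3.3, whose prior variance followed mean expression. The scale was log2(value + 1), whose pseudocount of 1 understates changes of low genes, and genes with a mean of at least 10 entered. All libraries shared a fit of 8 group means, with equal weight to both sexes and 16 residual degrees of freedom. p-values were adjusted by Benjamini-Hochberg over all 16825 genes tested. As alternatives the recovered reads were tested with DESeq2 1.42.0 and with the quasi-likelihood test of edgeR 4.0.16 after TMM scaling. The steps were tested on simulated data. No pair of libraries agreed within sampling noise (smallest chi-square per gene 4.30).

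The members, lists and tests were chosen with earlier results of these data known. Genes named in a comparison are those that passed, or the 4 with the smallest p and the others at an unadjusted p under 0.05. Alternatives were pseudocounts of 0.5 and 5, no filter or a mean of at least 50, TMM rescaling, a batch term, the bulb score, a replicate block, only the groups compared, and leaving out libraries.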

Additional observations from a re-analysis of the deposited data

Results flagged for a closer look

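In 16 of 124 sets of 6 libraries (31 genes in 4 arms), the highest or lowest library stood far from the other 5 by Dixon's test, where chance alone gives about 6.20, or 1 in 20. HT lithium male 1, the lithium library with the highest bulb score, accounted for 11. In it Slc4a4 was at 7726 normalised reads (the other 5 lithium libraries 3366 to 4102), Agt at 422 (77.3 to 178), Etnppl at 610 (242 to 359), Hes5 at 409 (237 to 291), Sox2 at 786 (519 to 572), Aqp4 at 4367 (2761 to 3325), Gja1 at 5789 (4341 to 4588), Mlc1 at 4534 (3806 to 4023) and Glul at 51137 (47271 to 47965). Fgfr3 at 2533 (2887 to 2964) and Aldoc at 16073 (18029 to 19047) lay below the others.

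WT female 2, the WT library with the highest bulb score, accounted for 3, with Slc4a4 at 6746 (the other 5 WT libraries 3573 to 4433), Sox2 at 746 (566 to 619) and Slc1a2 at 49663 (64278 to 70169). HT fluoxetine male 1, also high in bulb score, had F3 at 1201 (895 to 993). HT fluoxetine male 2, which was not, had Sox9 at 694 (512 to 532).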

How the results depend on the processing

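Of 1897 values of single genes under an alternative, 1829 kept their direction and their side of the threshold, 60 lost a call, 2 gained a call and 6 turned sign. Only the 21 genes that passed for the slope had a call to lose, since none passed between arms or sexes. Of 280 medians of the 31 genes, none of them tested, 8 turned sign. For lithium against vehicle in HT mice the median was -0.019 without the 4 libraries high in Drd2 or Ttr and -0.0036 without HT vehicle male 2. For the sex difference in the genotype effect (0.068) it was -0.016 with the bulb score, -0.024 with the linear score and -0.021 without HT vehicle male 3, and for that in the lithium effect (0.080) -0.0079 with the linear score, -0.012 without HT lithium male 1 and -0.019 without HT vehicle female 2. Of 281 counts of genes that passed, 7 were higher and 19 lower. With a batch term Cbs was at -0.0097 and Dio2 at -0.017 for lithium against vehicle in HT mice. Without the 6 libraries of the highest bulb score, 3 genes passed for the slope with a median of 0.012, Slc1a3 was at -0.00051, F3 at -0.0032 and Aldoc at 0.0048, Cldn10 was at 0.025 for the sex difference in the lithium effect, and 1 gene, Etnppl, passed between the sexes. The cause was not tested. Leaving out each library in turn gave 0 to 1 genes for fluoxetine in HT against WT and 16 to 22 for the slope, which had 23 with the linear score. Replicate numbers did not pair the libraries: of 36 same-numbered pairs 12 had a correlation over 0.1 (-0.70 to 0.72), and 7 of 24 libraries correlated best with their own number. With replicate number within sex as a block, 0 genes passed in each comparison of arms and sexes and 21 for the slope (median 0.032), where Dio2 no longer passed (adjusted p = 0.0682, limma). A fit of only the groups compared does not exist for the sexes or the slope, which use all groups. Depth was not limiting for single values, since the lowest was 71 reads.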
